A study of Mus musculus with 12 samples.

Results

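The mitosis and G2/M genes are 40 genes that cells need to enter mitosis, build a spindle, segregate chromosomes and divide, from the cyclin *Ccnb1* and its kinase *Cdk1* to the cytokinesis protein *Anln* and the transcription factor *Foxm1*. The 40 were listed by name for their function, with earlier results of these data known. All 40 were found among the 34678 gene symbols of the expression tables. Expression was read by RNA-sequencing in 12 tumors of LLC1-shLkb1 cells. This is a mouse Lewis lung carcinoma line in which a short hairpin RNA knocks down Lkb1 (gene *Stk11*). The tumors were grown in C57BL/6 mice several weeks old and of both sexes. The study treated subcutaneous and orthotopic tumors, and its RNA-sequencing methods do not state the site of those sequenced. Mice received control immunoglobulin (vehicle), palbociclib at 100 mg/kg by mouth on 3 days a week, anti-PD-1 antibody at 200 µg per mouse 3 times a week, or the combination of both for 2 weeks, with 3 tumors in each of the 4 arms. All arms carry the hairpin, so the arms compare treatments on 1 knockdown line and not Lkb1 states, and *Stk11* itself ranged from 7.90 to 11.5 FPKM over the 12 tumors. Values are FPKM, fragments scaled to the length of a gene and to the mapped fragments of a library, so levels can be set side by side between genes. The steps between low FPKM values gave an estimated 14900000 to 20300000 fragments per tumor, and no member fell below an estimated 196 fragments in any tumor.

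Mitosis is driven by cyclin B bound to CDK1, which is switched on by CDC25 phosphatases and helped by Polo-like and Aurora kinases. The spindle checkpoint then holds the anaphase promoting complex (APC/C) in check until every kinetochore is attached, after which CDC20 and UBE2C let the APC/C mark cyclin B and securin for destruction and the cell cleaves. Most of these genes are transcribed only late in the cell cycle. In resting cells the DREAM complex, built from an RB-family protein, an E2F and the MuvB core, keeps them off through a promoter element called the CHR, and in cycling cells MuvB pairs with MYBL2 and then FOXM1 to turn them on. Palbociclib inhibits the cyclin D kinases CDK4 and CDK6, which phosphorylate the RB family in G1, upstream of this program. The comparison asks what level the mitotic program held in whole tumors of mice given this inhibitor, anti-PD-1 or both. Palbociclib was given on only 3 days of each week, and the time from the last dose to collection is not given. Whether the kinases were inhibited in the sequenced tumors when these were taken is therefore not known. By staining of subcutaneous tumors, the study reported less phosphorylated RB under the combination than under vehicle or anti-PD-1.

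All 40 genes were higher on average with palbociclib than without it, by a small amount that did not pass the test for any single gene. The palbociclib effect is the mean of palbociclib minus vehicle and combination minus anti-PD-1 on the log2(FPKM + 0.1) scale, and it uses all 12 tumors. It was above 0 for 40 of 40 members, against 59.8% of all 15350 genes tested, with a median of 0.31 (1.24-fold) against 0.055 over all genes. The effect ran from 0.16 for *Bub1* to 0.53 for *Spc25*. By limma with Benjamini-Hochberg adjustment over all genes tested and a threshold of 0.05, 0 of 40 members passed, against 0.313% of all genes, and adjusted p ran from 0.0846 for *Cdk1* to 0.406 for *Ccnb1*. At an unadjusted p under 0.05 there were 26 members, all of them higher, against 14.1% of all genes that were higher at that level. The members moved together from tumor to tumor, so these counts are not 40 separate results. In simulated data of the same design, 58 of 200 genes planted at a log2 difference of 0.5 were recovered. The planted genes were drawn from all genes tested and given independent noise, so this share cannot be carried over to the members.

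**Figure D1:**
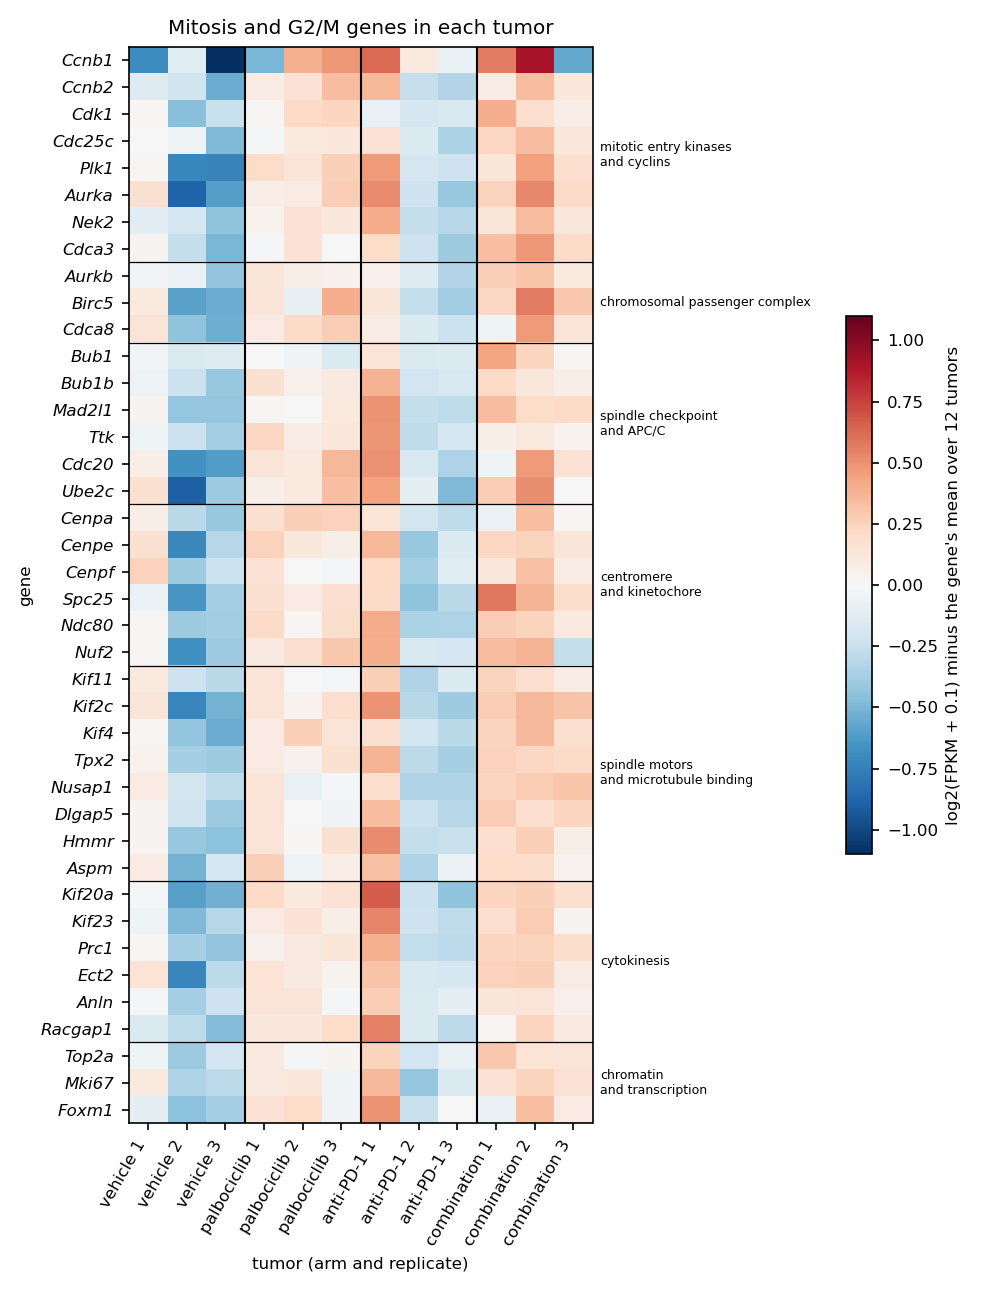
Log2(FPKM + 0.1) of each of the 40 genes (rows, grouped by role) in each of the 12 tumors (columns, grouped by arm), shown as the difference from the gene's own mean over 12 tumors, with red above and blue below that mean. Vehicle 2 and vehicle 3 are blue in all 40 rows, anti-PD-1 1 is red in 39 rows, and the palbociclib and combination columns are mostly pale to mid red.

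Averaged over the 12 tumors, the members' levels ran from 3.84 FPKM for *Ttk* to 75.8 for *Top2a*, with *Cdc20*, *Ccnb2*, *Mki67* and *Anln* next from the top. The highest tumor exceeded the lowest by 1.51-fold for *Kif11*, the steadiest member, and by 4.11-fold for *Ccnb1*, the most variable. From tumor to tumor the members moved up and down together. Averaged over the 40 genes, the log2 difference from the 12-tumor mean was 0.011, -0.42 and -0.42 in the vehicle tumors, 0.10, 0.097 and 0.14 with palbociclib, 0.34, -0.24 and -0.25 under anti-PD-1, and 0.22, 0.32 and 0.11 under both drugs. Vehicle 2, vehicle 3, anti-PD-1 2 and anti-PD-1 3 were the 4 lowest tumors, anti-PD-1 1 was the highest, and the anti-PD-1 arm therefore spanned nearly the whole range. The arm means were -0.28 ± 0.25 (SD, n = 3) with vehicle, 0.11 ± 0.023 with palbociclib, -0.050 ± 0.34 under anti-PD-1 and 0.21 ± 0.11 under both drugs. Anti-PD-1 1 held the highest value of all 12 tumors for 24 members, combination 2 for 11, combination 1 for 4 and combination 3 for 1. The lowest value was in vehicle 2 for 20 members, vehicle 3 for 17 and anti-PD-1 2 for 3. Spread within an arm differed as well: the median SD over the members was 0.26 with vehicle, 0.088 with palbociclib, 0.36 under anti-PD-1 and 0.11 under both drugs, where the median over all genes was 0.25, 0.17, 0.22 and 0.16. The palbociclib arm was the tightest of the 4 for 23 members. In bulk tumor RNA, fewer cycling cells and less mitotic RNA per cell cannot be told apart.

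**Figure D2:**
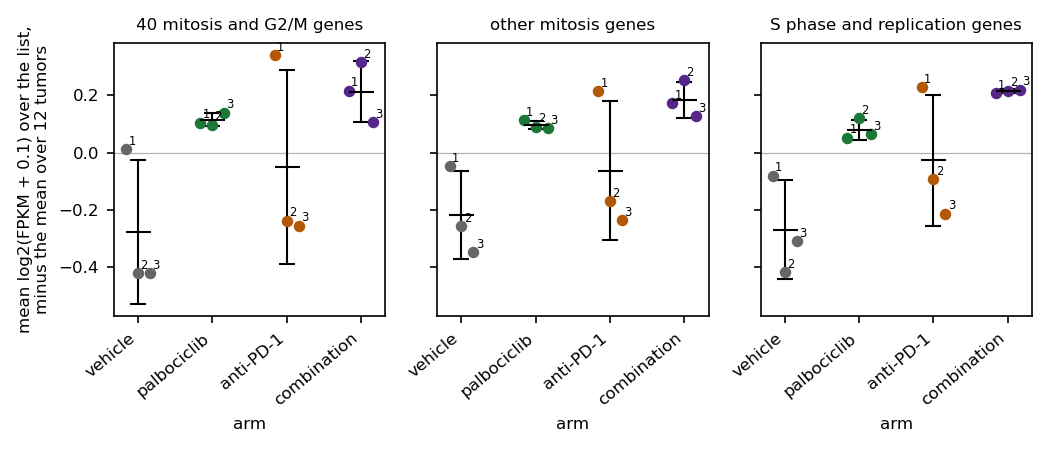
Mean log2(FPKM + 0.1) over a gene list minus the list's mean over 12 tumors, one numbered point per tumor, for the 40 mitosis and G2/M genes, the other mitosis genes and the S phase genes. Bars give the arm mean ± SD of 3 tumors; in each panel vehicle 2, vehicle 3, anti-PD-1 2 and anti-PD-1 3 lie below 0 and all 6 tumors given palbociclib lie above it.

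Across the 12 tumors the 780 pairs of members had a median Pearson r of 0.85, with 762 pairs above 0.5 and a lowest r of 0.29. After the arm means were taken out the median was 0.79, so the shared movement was also present within arms. These are descriptions over 12 points whose genes share libraries and depth. Counts of members are therefore not counts of independent results. The cyclin B gene *Ccnb1* followed the others least, with a median r of 0.54, followed by *Bub1* at 0.68 and *Cdk1* at 0.70.

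Because the members moved together, their promoters were searched for 2 elements known from late cell-cycle genes. RefSeq promoter windows (GRCm38.p6, from 250 bases before to 50 after the start site) matched 34 of the 40 genes. The CHR was read as TTTGAA or TTCGAA on either strand, and the CCAAT box, bound by the factor NF-Y, as CCAAT on either strand; the 2 sets of letters do not overlap. A CHR match was found in 27 of the 34 (79.4%) against 21.7% of 27025 genes with a window, and a CCAAT match in 27 (79.4%) against 41.1%. Both were found in 24 members (70.6%) against 8.61% of all genes, and either in 30. The elements were not particular to the 40. Of 66 other mitosis genes with a window, 66.7% held a CHR match, 60.6% a CCAAT match and 43.9% both. S phase and replication genes, which are driven mainly through E2F sites, held a CHR match in 23.5%, a CCAAT match in 61.8% and both in 20.6%. In 25 of the 27 members the CHR match nearest to the start site lay within 50 bases of it. The following stretches of 100 bases end just before the start site and are shown because each holds both elements side by side, in a kinase gene, a gene for an APC/C activator, a spindle motor gene and a topoisomerase gene. Capitals mark CHR and CCAAT matches, which read TTCAAA and ATTGG where the element lies on the opposite strand. The *Cdk1* stretch is chr10:69352913-69353012, minus strand, that of *Cdc20* is chr4:118437344-118437443, minus strand, that of *Kif11* is chr19:37376282-37376381, plus strand and that of *Top2a* is chr11:99024190-99024289, minus strand, all on GRCm38.p6 and printed 5′ to 3′ along the gene.
Cdk1: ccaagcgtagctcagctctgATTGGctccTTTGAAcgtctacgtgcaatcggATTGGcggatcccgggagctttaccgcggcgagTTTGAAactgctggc
Cdc20: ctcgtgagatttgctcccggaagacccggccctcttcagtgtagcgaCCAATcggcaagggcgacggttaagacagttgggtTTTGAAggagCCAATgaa
Kif11: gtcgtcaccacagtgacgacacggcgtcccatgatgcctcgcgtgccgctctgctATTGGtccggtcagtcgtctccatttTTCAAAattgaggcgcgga
Top2a: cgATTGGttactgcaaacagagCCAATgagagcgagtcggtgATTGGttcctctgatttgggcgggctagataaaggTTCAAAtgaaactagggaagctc
The CHR match closest to the start began 15 bases before it in *Cdk1*, 18 in *Cdc20*, 19 in *Kif11* and 23 in *Top2a*. A match is a description of letters and not a shown binding site, and the tumors hold no binding data.

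**Figure D3:**
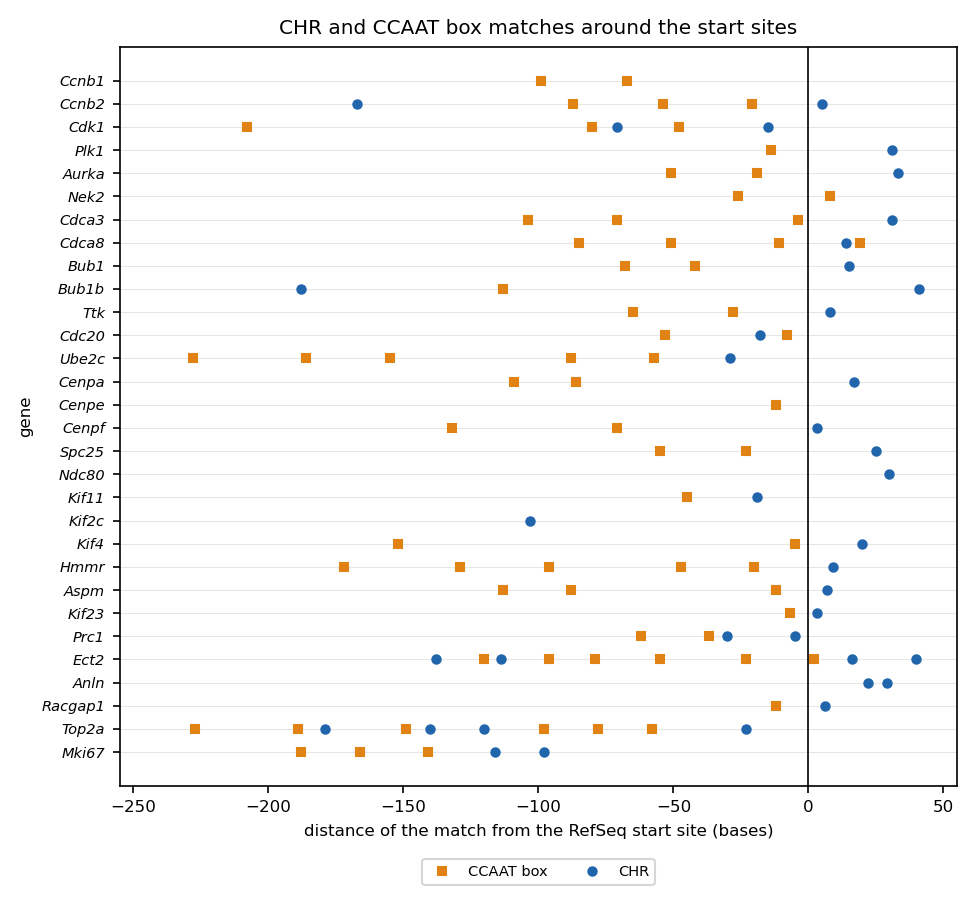
Position of each CHR match (blue circles) and CCAAT match (orange squares) relative to the RefSeq start site, in bases, for the 30 members with a match of either kind. CHR matches lie mostly within 50 bases of the start and CCAAT matches mostly upstream of it.

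Mitotic entry is covered by 8 members, and all 8 had a palbociclib effect above 0, with a median of 0.38; 7 reached an unadjusted p under 0.05 and 0 passed the adjusted threshold. *Cdk1*, the kinase that starts mitosis, had the lowest adjusted p of the 40. *Cdk1* stood at 36.01, 25.9 and 30.1 FPKM in the vehicle tumors, at 36.1, 41.6 and 42.1 under palbociclib, at 33.6, 31.4 and 31.8 under anti-PD-1 and at 47.02, 40.5 and 37.7 under both drugs. All 3 palbociclib tumors lay above all 3 vehicle tumors and all 3 combination tumors above all 3 anti-PD-1 tumors, though vehicle 1 and palbociclib 1 were nearly equal. Its palbociclib effect was 0.38 ± 0.090 (SE, adjusted p = 0.0846). *Ccnb1*, the cyclin that activates it, was the most uneven member. The FPKM of *Ccnb1* were 4.24, 6.26 and 3.17 under vehicle, 4.82, 9.04 and 9.62 under palbociclib, 10.6, 7.45 and 6.54 under anti-PD-1 and 10.3, 13.03 and 4.63 under both drugs. The 3 vehicle tumors were below the 3 anti-PD-1 tumors, which happened for no other member, while palbociclib 1 and combination 3 fell among the vehicle values. The effect for *Ccnb1* was 0.42 ± 0.28 (SE, adjusted p = 0.406), with the widest error of the list. Reads of *Ccnb1* could be shared with processed pseudogenes, of which *Ccnb1-ps* is 99.2% identical over 1287 bases, so its values are less certain.

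*Plk1*, the Polo-like kinase of mitotic entry and spindle assembly, more clearly separated the vehicle arm. Vehicle tumors held 26.2, 15.8 and 15.6 FPKM of *Plk1*, palbociclib tumors 30.1, 28.7 and 31.3, anti-PD-1 tumors 36.1, 22.9 and 22.3 and combination tumors 28.6, 35.8 and 29.7. Every palbociclib and every combination tumor exceeded every vehicle tumor, whereas anti-PD-1 1 was the highest of 12 and the other anti-PD-1 tumors sat within the vehicle range. The palbociclib effect on *Plk1* was 0.46 ± 0.16 (SE, adjusted p = 0.150). *Aurka*, the Aurora kinase of centrosomes and spindle poles, had one of the 3 highest effects, 0.48 ± 0.19 (SE, adjusted p = 0.202). *Aurka* stood at 26.1, 12.6 and 15.2 FPKM in the vehicle tumors, at 24.4, 24.7 and 28.1 under palbociclib, at 33.2, 19.8 and 17.3 under anti-PD-1 and at 27.6, 33.6 and 26.9 under both drugs. Vehicle 1 was above palbociclib 1 and palbociclib 2, and the combination tumors were all above the vehicle tumors. The second B-type cyclin *Ccnb2* had means of 52.6 ± 7.42 FPKM (SD, n = 3) under vehicle, 74.1 ± 6.67 under palbociclib, 62.98 ± 17.5 under anti-PD-1 and 73.4 ± 7.23 under both drugs. For *Cdc25c*, the phosphatase that activates CDK1, *Nek2*, a centrosome kinase, and *Cdca3*, which promotes the destruction of the CDK1 inhibitor WEE1, the effects were 0.30 ± 0.11, 0.31 ± 0.12 and 0.38 ± 0.12 (SE). Combination tumors of all 3 genes lay above all vehicle tumors.

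The chromosomal passenger complex corrects faulty attachments of chromosomes to the spindle, and its 3 members all reached an unadjusted p under 0.05 with effects of 0.31 to 0.51. *Aurkb* encodes its kinase. The FPKM of *Aurkb* were 18.6, 18.1 and 14.05 under vehicle, 20.7, 19.98 and 19.6 under palbociclib, 19.7, 17.2 and 15.2 under anti-PD-1 and 22.8, 23.5 and 20.4 under both drugs. As with *Cdk1*, palbociclib tumors were all above vehicle tumors and combination tumors all above anti-PD-1 tumors. Only *Cdk1* and *Aurkb* of the 40 met both conditions, against 1.95% of all genes. The effect on *Aurkb* was 0.31 ± 0.090 (SE, adjusted p = 0.117). *Birc5* (survivin), which carries the complex to the centromere, had the second highest effect of the list at 0.51 ± 0.15 (SE, adjusted p = 0.112). Vehicle tumors held 23.05, 14.2 and 14.6 FPKM of *Birc5*, palbociclib tumors 23.6, 20.2 and 28.3, anti-PD-1 tumors 23.4, 17.8 and 16.4 and combination tumors 25.1, 31.6 and 26.3. The combination values were above all vehicle and all anti-PD-1 values, and palbociclib 2 lay below vehicle 1. The third subunit, *Cdca8* (borealin), averaged 10.5 ± 2.84 FPKM (SD, n = 3) under vehicle, 14.3 ± 0.894 under palbociclib, 11.7 ± 1.35 under anti-PD-1 and 14.4 ± 2.69 under both drugs, and vehicle 1 overlapped both palbociclib-containing arms.

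Among the 6 genes of the spindle checkpoint and of APC/C activation, the effect was above 0 for 6 with a median of 0.26, and 3 reached an unadjusted p under 0.05. *Bub1*, a checkpoint kinase, had the lowest effect of the 40, 0.16 ± 0.085 (SE, adjusted p = 0.295). *Bub1* stood at 22.99, 20.95 and 21.2 FPKM in the vehicle tumors, at 23.5, 22.8 and 21.2 under palbociclib, at 25.98, 21.03 and 21.1 under anti-PD-1 and at 31.7, 27.6 and 23.6 under both drugs. Palbociclib and vehicle overlapped for *Bub1*, and the highest values were those of combination 1 and combination 2, with anti-PD-1 1 next. *Bub1b*, which encodes the checkpoint protein BUBR1, had its highest value in an anti-PD-1 tumor. The FPKM of *Bub1b* were 30.2, 26.7 and 23.6 under vehicle, 35.3, 32.7 and 33.7 under palbociclib, 41.02, 27.1 and 27.8 under anti-PD-1 and 36.4, 34.2 and 32.9 under both drugs. All 3 palbociclib tumors exceeded all 3 vehicle tumors, anti-PD-1 1 was the highest of all, and the effect was 0.24 ± 0.11 (SE, adjusted p = 0.236). *Mad2l1* (MAD2) blocks CDC20 until kinetochores attach. Vehicle tumors held 8.80, 6.40 and 6.41 FPKM of *Mad2l1*, palbociclib tumors 8.70, 8.63 and 9.31, anti-PD-1 tumors 12.2, 7.20 and 7.12 and combination tumors 10.99, 9.97 and 10.01. Vehicle 1 was within the palbociclib values, the combination values were all above vehicle, and the effect was 0.29 ± 0.14 (SE, adjusted p = 0.260).

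*Cdc20*, the APC/C activator that MAD2 blocks, was one of the most abundant members per length. *Cdc20* stood at 75.2, 45.2 and 46.8 FPKM in the vehicle tumors, at 79.2, 77.3 and 92.3 under palbociclib, at 102, 63.4 and 56.5 under anti-PD-1 and at 69.7, 99.1 and 79.9 under both drugs. The palbociclib tumors were all above the vehicle tumors, but combination 1 was below vehicle 1, and the effect was 0.40 ± 0.17 (SE, adjusted p = 0.220). *Ube2c*, the ubiquitin-conjugating enzyme that works with the APC/C, ranged widely. The FPKM of *Ube2c* were 51.4, 24.6 and 34.8 under vehicle, 47.9, 49.3 and 57.8 under palbociclib, 62.2, 42.5 and 32.8 under anti-PD-1 and 55.4, 65.3 and 45.7 under both drugs. Vehicle 1 fell within the palbociclib and combination values, and the effect was 0.43 ± 0.19 (SE, adjusted p = 0.242). *Ttk* (MPS1), the kinase at the head of the checkpoint, was the member with the lowest mean level, 3.84 FPKM, and an effect of 0.21 ± 0.13 (SE). *Cdc20*, *Ube2c* and *Mad2l1* each have pseudogenes over 90% identical to them, whose reads the counting may have split. Stretches over 90% identical in other genes or pseudogenes were also found for *Racgap1*, *Cdc25c*, *Plk1*, *Kif11*, *Kif2c*, *Cenpe*, *Top2a* and *Hmmr*.

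All 6 centromere and kinetochore genes had effects above 0, with a median of 0.34, and 4 reached an unadjusted p under 0.05. *Spc25*, a subunit of the NDC80 complex that grips microtubules, had the highest palbociclib effect of the 40 at 0.53 ± 0.13 (SE, adjusted p = 0.0885). *Spc25* stood at 5.98, 3.99 and 4.85 FPKM in the vehicle tumors, at 7.04, 6.68 and 7.11 under palbociclib, at 7.25, 4.57 and 5.07 under anti-PD-1 and at 9.43, 8.13 and 7.18 under both drugs. Palbociclib and combination tumors were all above vehicle tumors, and combination 1 and combination 2 were above every anti-PD-1 tumor, whereas anti-PD-1 1 was just above combination 3. *Ndc80*, the subunit that names the complex, gave a smaller difference. Vehicle tumors held 22.2, 16.8 and 16.9 FPKM of *Ndc80*, palbociclib tumors 25.5, 22.4 and 25.2, anti-PD-1 tumors 29.3, 17.3 and 17.4 and combination tumors 26.6, 26.1 and 23.7. Every palbociclib-treated tumor exceeded every vehicle tumor by a margin that was narrow at vehicle 1, and the effect was 0.35 ± 0.13 (SE, adjusted p = 0.187). Its partner *Nuf2* averaged 5.25 ± 1.30 FPKM (SD, n = 3) under vehicle, 7.57 ± 0.542 under palbociclib, 6.79 ± 1.67 under anti-PD-1 and 7.47 ± 1.73 under both drugs. Transcripts 2700099C18Rik and Gm1976, at 4.39 and 4.15 FPKM, are over 90% identical to stretches of *Ndc80*.

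*Cenpa* encodes the histone that marks centromeres. The FPKM of *Cenpa* were 10.4, 8.01 and 7.37 under vehicle, 11.1, 11.8 and 11.8 under palbociclib, 10.9, 8.52 and 8.09 under anti-PD-1 and 9.41, 12.4 and 10.002 under both drugs. Palbociclib tumors were above all vehicle tumors while combination 1 and combination 3 were below vehicle 1, and the effect was 0.32 ± 0.11 (SE, adjusted p = 0.154). *Cenpf*, a kinetochore protein that builds up in G2, overlapped between all 4 arms. *Cenpf* stood at 13.7, 8.70 and 9.71 FPKM in the vehicle tumors, at 12.8, 11.5 and 11.3 under palbociclib, at 13.3, 8.82 and 10.4 under anti-PD-1 and at 12.4, 14.4 and 12.1 under both drugs. Vehicle 1 was the second highest tumor for *Cenpf*, and its effect was 0.22 ± 0.13 (SE, adjusted p = 0.335). *Cenpe*, the kinetochore motor, averaged 14.9 ± 4.61 FPKM (SD, n = 3) under vehicle, 19.6 ± 1.34 under palbociclib, 17.3 ± 4.91 under anti-PD-1 and 20.4 ± 0.820 under both drugs, and its effect was 0.35 ± 0.16 (SE).

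The 8 spindle motors and microtubule-binding proteins had effects from 0.21 to 0.44, all above 0, and 5 reached an unadjusted p under 0.05. *Kif11* (Eg5) pushes spindle poles apart and was among the 3 lowest of the 40 by effect, at 0.21 ± 0.11 (SE, adjusted p = 0.283). The FPKM of *Kif11* were 36.1, 28.7 and 27.3 under vehicle, 37.02, 33.6 and 33.004 under palbociclib, 40.3, 26.7 and 30.3 under anti-PD-1 and 39.8, 38.2 and 35.6 under both drugs. Vehicle 1 was above palbociclib 2 and palbociclib 3, and the arms overlapped in every comparison. *Tpx2*, which activates Aurora A on spindle microtubules, showed the same order of arms with less overlap. Vehicle tumors held 28.9, 21.9 and 21.4 FPKM of *Tpx2*, palbociclib tumors 30.03, 29.2 and 31.6, anti-PD-1 tumors 36.5, 23.1 and 21.9 and combination tumors 33.5, 32.97 and 32.5. Palbociclib and combination tumors were all above vehicle tumors, palbociclib 2 by a narrow margin, and anti-PD-1 1 was the highest. The effect was 0.33 ± 0.12 (SE, adjusted p = 0.181). *Kif4*, a chromosome-bound motor, reached 0.42 ± 0.11 (SE, adjusted p = 0.0951), one of 3 members with an adjusted p under 0.1, with means of 12.3 ± 2.63 FPKM (SD, n = 3) under vehicle, 17.1 ± 1.07 under palbociclib, 14.3 ± 2.59 under anti-PD-1 and 18.3 ± 1.19 under both drugs. *Kif2c*, which depolymerizes microtubules at centromeres, had an effect of 0.44 ± 0.17 (SE). The bundling protein *Nusap1*, the spindle proteins *Dlgap5* and *Hmmr* and the pole protein *Aspm* had effects of 0.29 ± 0.10, 0.27 ± 0.12, 0.28 ± 0.14 and 0.24 ± 0.13. *Nusap1* was the 1 member of this group whose combination tumors all exceeded the anti-PD-1 tumors.

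The 6 cytokinesis genes had effects from 0.20 to 0.39, and 3 reached an unadjusted p under 0.05. *Kif20a*, a motor of the central spindle, had the highest single value in anti-PD-1 1. *Kif20a* stood at 26.1, 17.5 and 18.4 FPKM in the vehicle tumors, at 31.04, 28.7 and 29.7 under palbociclib, at 42.2, 22.6 and 19.5 under anti-PD-1 and at 31.3, 31.9 and 30.1 under both drugs. Palbociclib and combination tumors were all above vehicle tumors and tightly placed, and the effect was 0.39 ± 0.17 (SE, adjusted p = 0.231). *Prc1*, which bundles the antiparallel microtubules of the midzone, repeated this order. The FPKM of *Prc1* were 9.15, 6.99 and 6.68 under vehicle, 9.35, 9.72 and 9.97 under palbociclib, 11.9, 7.50 and 7.40 under anti-PD-1 and 10.7, 10.7 and 10.4 under both drugs. Again every palbociclib-treated tumor was above every vehicle tumor, anti-PD-1 1 was the highest, and the effect was 0.32 ± 0.12 (SE, adjusted p = 0.191). *Anln* (anillin) is the scaffold of the cleavage ring. Vehicle tumors held 55.4, 43.7 and 48.1 FPKM of *Anln*, palbociclib tumors 62.1, 62.2 and 55.97, anti-PD-1 tumors 67.9, 50.4 and 52.7 and combination tumors 61.8, 62.2 and 58.5. Its palbociclib tumors were above the vehicle tumors, palbociclib 3 only by a little, and its effect of 0.20 ± 0.088 (SE, adjusted p = 0.228) was the second lowest of the 40. The centralspindlin genes *Kif23* and *Racgap1* and the RhoA activator *Ect2*, which together place the ring, had effects of 0.27 ± 0.14, 0.26 ± 0.13 and 0.30 ± 0.14 (SE). Exons of *Kif20a*, *Kif4* and *Prc1* overlap those of *Cdc23*, *Pdzd11* and *Rccd1*, and reads of overlapping genes could not be told apart here.

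The last 3 genes act on chromatin and transcription. *Top2a*, the topoisomerase that untangles sister chromatids, was the most abundant member. *Top2a* stood at 72.5, 56.7 and 64.9 FPKM in the vehicle tumors, at 80.6, 74.5 and 76.6 under palbociclib, at 88.8, 65.005 and 70.98 under anti-PD-1 and at 92.1, 83.5 and 83.04 under both drugs. Palbociclib and combination tumors were all above vehicle tumors, and the effect was 0.24 ± 0.089 (SE, adjusted p = 0.179). *Mki67* encodes the proliferation marker Ki-67, which coats mitotic chromosomes. The FPKM of *Mki67* were 62.8, 46.3 and 47.7 under vehicle, 62.3, 63.1 and 56.1 under palbociclib, 74.7, 43.3 and 52.2 under anti-PD-1 and 65.1, 68.9 and 64.8 under both drugs. Vehicle 1 was above palbociclib 1 and palbociclib 3, the combination tumors were above all vehicle tumors, and the effect was 0.24 ± 0.13 (SE, adjusted p = 0.299). *Foxm1*, the transcription factor that drives this program, was similar in the 3 treated arms. Vehicle tumors held 9.56, 7.51 and 7.98 FPKM of *Foxm1*, palbociclib tumors 11.5, 11.8 and 10.02, anti-PD-1 tumors 14.5, 8.67 and 10.3 and combination tumors 9.74, 12.9 and 10.98. All palbociclib and combination tumors were above vehicle tumors, combination 1 by a narrow margin, and the effect was 0.22 ± 0.13 (SE, adjusted p = 0.343).

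**Figure D4:**
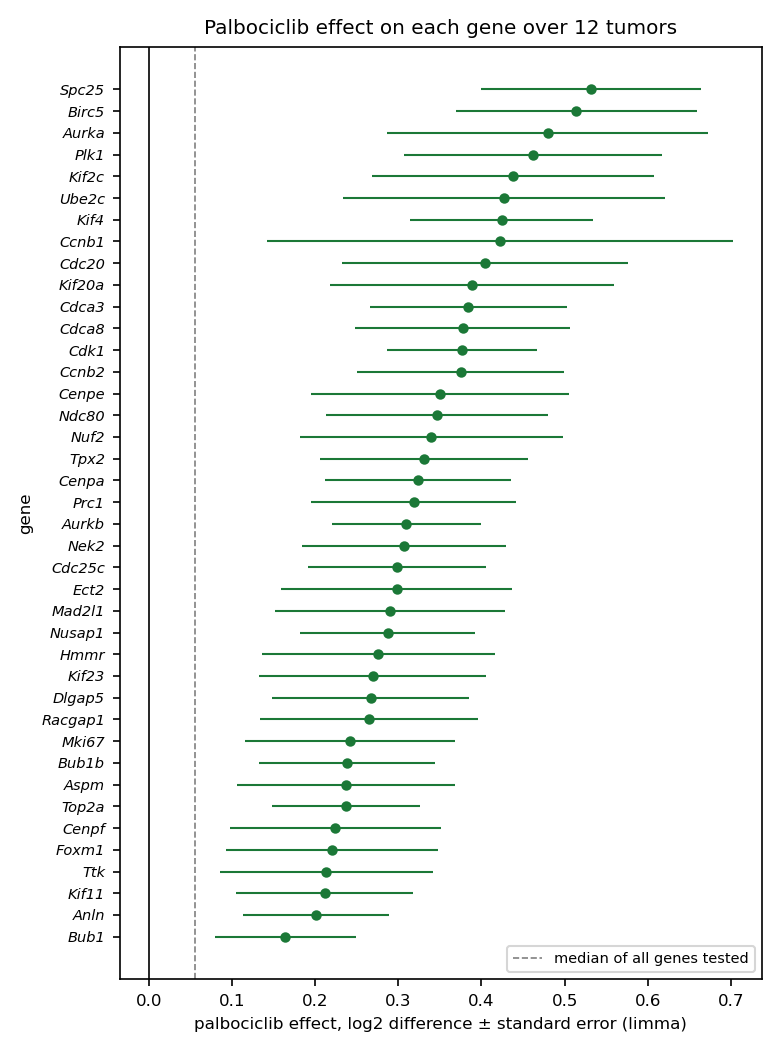
Palbociclib effect of each of the 40 genes (log2 difference, point) with its standard error (bar) from limma over 12 tumors, ordered by size. Points run from 0.16 to 0.53, all to the right of the dashed median of all genes tested at 0.055.

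Each treated arm was then set against vehicle, and these 3 contrasts share the vehicle tumors. Palbociclib alone minus vehicle was above 0 for 40 of 40 members (59.1% of all genes), with a median of 0.39 against 0.068 over all genes. It passed for 0 members (0.143% of all genes), reached an unadjusted p under 0.05 for 15 (9.43% of all genes were higher at that level), and had adjusted p from 0.272 to 0.863. The combination minus vehicle was above 0 for 40 (53.6%), with a median of 0.46 against 0.030, passed for 0 (0.013%), reached the unadjusted level for 34 (8.64%), and had adjusted p from 0.184 to 0.419. Anti-PD-1 minus vehicle was above 0 for 39 members (44% of all genes), with a median of 0.21, passed for 0 (0% of all genes) and reached the unadjusted level for 1, *Plk1* (3.28%). This contrast depended on single tumors: its median was 0.018 without anti-PD-1 1, 0.12 without vehicle 2, 0.31 without anti-PD-1 2 and 0.32 without vehicle 1. In the last of these fits 11 members reached the unadjusted level, where the share of all genes was not taken. Every palbociclib tumor was above every vehicle tumor for 21 members, against 12.9% of all genes, and every combination tumor above every vehicle tumor for 29, against 10.8%. The same complete separation of anti-PD-1 from vehicle held for 1 member, *Ccnb1*, against 4.25%.

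With anti-PD-1 given to both arms, the combination minus anti-PD-1 was above 0 for 40 members (57.4% of all genes) with a median of 0.26, passed for 0 (0.00651%) and reached an unadjusted p under 0.05 for 9 (7.61%). Without anti-PD-1 1 the median was 0.46 and 31 members reached that level. The medians were 0.15 and 0.17, with 2 members each, without anti-PD-1 2 or anti-PD-1 3. Without combination 1 or combination 2, 4 and 3 members reached that level. The share of all genes at the unadjusted level was not taken in any fit without 1 tumor, so such counts have no background beside them. Complete separation of these arms was seen for 5 members, *Cdk1*, *Cdca3*, *Aurkb*, *Birc5* and *Nusap1*, against 11.4% of all genes, which is close to the share among the members. The anti-PD-1 effect, averaged over tumors with and without palbociclib, was above 0 for 39 members, against 40.7% of all genes, with a median of 0.16 against -0.040 over all genes, and it passed for 0 members (0% of all genes), with 0 at an unadjusted p under 0.05 by limma (1.64% of all genes were higher at that level). Its median was 0.050 without anti-PD-1 1, and without vehicle 1 it was 0.22 with 9 members at the unadjusted level. The combination minus palbociclib had a median of 0.096, with 33 members above 0 (41.7% of all genes), 0 passed (0.00651%) and 1, *Bub1*, at the unadjusted level (1.06%), and without combination 2 the median was 0.046. The interaction, the difference between the palbociclib effect with and without anti-PD-1, was above 0 for 11 members, against 48.2% of all genes. By limma 0 members passed (0% of all genes), with adjusted p of at least 0.911, and 0 reached an unadjusted p under 0.05. At that level 2.39% of all genes were higher, and the share that was lower is not given here. The median interaction of the members was -0.12. The sign of this median rested on single tumors, since it was 0.053 without anti-PD-1 1 and 0.019 without vehicle 2, against -0.28 without vehicle 1. A difference between the palbociclib effect with and without anti-PD-1 was not detectable against this spread between tumors.

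Single tumors decided whether members passed. Without anti-PD-1 1, the tumor with the highest mitotic levels of that arm, 23 members passed the adjusted threshold for the palbociclib effect. *Spc25* had a limma adjusted p of 0.0303 and *Cdk1* of 0.0493. In this fit 758 of all 15350 genes passed. Without vehicle 1, the highest vehicle tumor, 6 members passed: *Cdk1*, *Plk1*, *Birc5*, *Cdca8*, *Spc25* and *Kif4*. In that fit 692 of all 15350 genes passed. With all 12 tumors 48 genes passed, so calls rose over the whole table and not only among the members. Without any other single tumor 0 members passed. Over the 12 fits, between 11 members (without anti-PD-1 2) and 39 members (without anti-PD-1 1) reached an unadjusted p under 0.05. At that level 14.1% of all genes were higher in the fit of all 12 tumors, and the share was not taken in these 12 fits. The median effect stayed between 0.26 and 0.41 in these 12 fits. The labels give no reason to leave out either tumor.

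**Figure D5:**
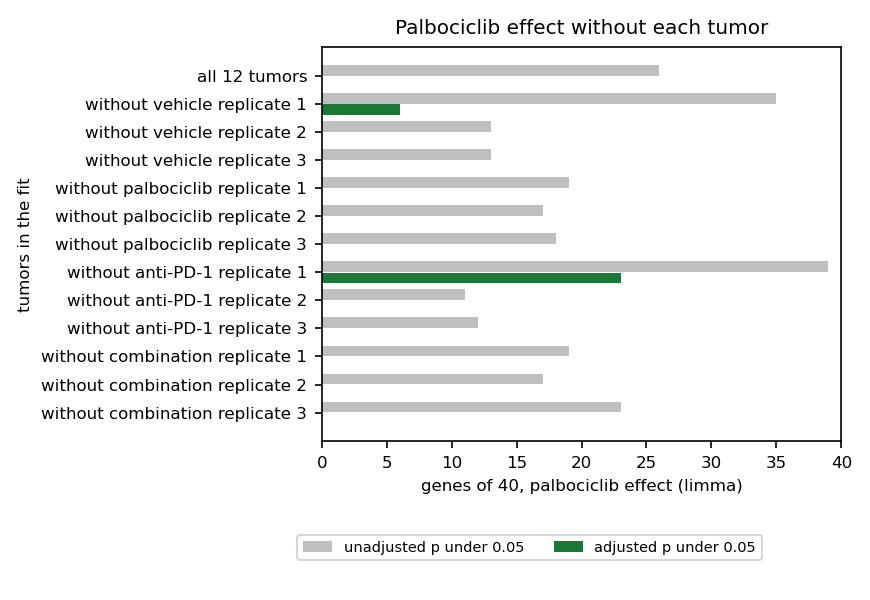
Number of the 40 genes with an unadjusted (grey) or adjusted (green) p under 0.05 for the palbociclib effect, in the fit of all 12 tumors and in the 12 fits that leave out 1 tumor. Adjusted calls appear without anti-PD-1 1 (23) and without vehicle 1 (6), and in no other fit.

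The wider cell-cycle machinery was read in the same fit. Of 77 other mitosis genes tested, out of 82 listed, 71 had a palbociclib effect above 0, with a median of 0.29; 0 passed, 42 were higher and 1 lower at an unadjusted p under 0.05. The highest were *Cenpw*, a centromere protein, at 0.59 ± 0.15 (SE, adjusted p = 0.0911), *Gtse1*, a microtubule-associated protein of G2, at 0.55 ± 0.11 (adjusted p = 0.0601) and *Fam83d*, a spindle protein, at 0.51 ± 0.14. The lowest were the ubiquitin ligase gene *G2e3* at -0.28 ± 0.11, *Wee1*, the kinase that restrains CDK1, at -0.18 ± 0.17, and *Ckap4*, which despite its name encodes a membrane protein of the endoplasmic reticulum, at -0.15 ± 0.13. Of 16 genes for APC/C subunits and inhibitors, 12 were above 0, with a median of 0.13, 0 passed and 4 were higher at the unadjusted level. The inhibitor *Fbxo5* (EMI1), itself a gene of the late cycle, was highest at 0.45 ± 0.12 (adjusted p = 0.0955), ahead of the subunits *Anapc15* (0.31 ± 0.14) and *Anapc11* (0.24 ± 0.11). *Cdc27*, *Cdc16* and *Anapc2*, which encode other subunits of the complex, were at -0.093 ± 0.065, -0.034 ± 0.10 and -0.032 ± 0.061.

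Of 13 genes listed for DREAM, MuvB and the RB family, 9 were above 0, with a median of 0.14. Of these, 0 passed and 3 were higher at the unadjusted level. *Mybl2*, the activating partner of MuvB, stood at 0.44 ± 0.12 (SE, adjusted p = 0.110), *Rbl1* (p107) at 0.31 ± 0.087 and the MuvB subunit *Lin37* at 0.26 ± 0.11. The dimerization partner *Tfdp2*, *Rbl2* (p130) and *Rb1* gave -0.16 ± 0.17, -0.060 ± 0.12 and -0.055 ± 0.13, each less than 1 SE from 0. All 42 S phase and replication genes were above 0, with a median of 0.28, 0 passed and 28 were higher at the unadjusted level. *Ccne1*, the cyclin that opens S phase, reached 0.66 ± 0.15 (adjusted p = 0.0828), the replication helicase gene *Gins1* 0.50 ± 0.14 and the flap nuclease gene *Fen1* 0.46 ± 0.14, while the helicase gene *Mcm6*, the polymerase gene *Pola1* and the licensing gene *Cdt1* were lowest at 0.084 ± 0.074, 0.091 ± 0.082 and 0.094 ± 0.068. Of 11 genes for D-type cyclins, CDK4/6 and CDK inhibitors, 9 were above 0, with a median of 0.23 and 0 passed. *Ccnd3* and *Ccnd1*, cyclins that bind the drug's target kinases, stood at 0.54 ± 0.16 and 0.52 ± 0.15 (adjusted p = 0.112) and the CDK4/6 inhibitor gene *Cdkn2c* at 0.49 ± 0.14. The inhibitors *Cdkn1b* (p27) and *Cdkn1a* (p21) were at -0.36 ± 0.23 and -0.15 ± 0.14, and *Cdk4* at 0.066 ± 0.081.

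The 10 genes outside the list whose levels followed the mean z-score of the 40 most closely over 12 tumors were *Melk*, *Ckap2l*, *Cenpn*, *Ccnf*, *Eme1*, *Ckap2*, *Asf1b*, *C330027C09Rik*, *Poc1a* and *Ska3*, with Pearson r from 0.954 to 0.977. *Melk*, *Ckap2l*, *Cenpn*, *Ckap2* and *Ska3* are on the list of other mitosis genes. The other five include *Ccnf*, a cyclin of G2 that targets proteins for destruction, *Asf1b*, a histone chaperone, and *Eme1*, a nuclease subunit.

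Markers of other cells differed between the tumors. Summed FPKM of 7 macrophage markers were 124 to 686 under vehicle, 536 to 884 under palbociclib, 142 to 504 under anti-PD-1 and 391 to 896 under both drugs, and those of 6 leukocyte markers were 52.3 to 82.1 under vehicle, 90.7 to 129 under palbociclib, 47.2 to 81.8 under anti-PD-1 and 57.5 to 128 under both drugs. The 6 neutrophil markers summed to 31.7 to 539 under vehicle, 15.3 to 33.2 under palbociclib, 47.5 to 276 under anti-PD-1 and 14.2 to 88.8 under both drugs. Vehicle 3, anti-PD-1 2 and anti-PD-1 3, which are among the 4 tumors with the lowest mitotic levels, had the highest neutrophil sums of the 12 (539, 276 and 245) and the lowest macrophage sums (124, 142 and 159), while vehicle 2 was at 62.3 and 420.0. T cell markers summed to 1.79 to 6.71 under vehicle, 7.39 to 14.6 under palbociclib, 1.72 to 4.29 under anti-PD-1 and 4.38 to 14.7 under both drugs. Endothelial markers ran from 12.5 to 31.7, fibroblast markers from 163 to 476 and erythroid markers from 45.9 to 1128 over the 12 tumors. Adipocyte markers reached 423 in palbociclib 1 and 1039.6 in combination 1, and skin markers 411 in palbociclib 2. Skeletal muscle markers were at 70.9, 209.8 and 189 in vehicle 1, palbociclib 3 and combination 2. Without those 3 tumors, an alternative chosen after seeing the data, the median palbociclib effect of the members was 0.35, with 0 passed and 23 at an unadjusted p under 0.05 by limma. Of the defining immune markers, *Cd8b1* and *Ly6g* were at 0 in at least 1 tumor, and the part of the other marker lists in the mitotic levels was not tested. Of the epithelial genes, *Krt8* ranged from 62.0 to 276 FPKM, while *Epcam* was between 0 and 1.81 and *Krt18* between 0 and 5.08, and the mesenchymal gene *Vim* lay between 267 and 422.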

How the data were processed

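RNA-sequencing values of 12 tumors, 3 per arm, were used as deposited. The authors deposited 1 table of FPKM per tumor with 34745 entries, of which 67 repeat a symbol; the entry with the highest mean was kept. The submitters' processing notes name HISAT2 and GRCm38 (mm10); the counting tool, annotation and strand handling are not given in the sources used here. The members and all gene lists were chosen with earlier results of these data known. After a filter that asked for an average FPKM of 0.1 or more over the tumors, 15350 genes remained, all 40 members among them. The linear models of limma 3.58.1 (R 4.3.3) were fitted to log2(FPKM + 0.1) values of these genes, with 1 mean per arm, a trended eBayes step and Benjamini-Hochberg adjusted p-values over the whole table at 0.05. A pseudocount understates changes of low genes. The labels do not say whether the tumors of an arm came from separate mice, so p-values measure the spread between these tumors. Values in all 12 tumors were written out for 21 members fixed by role and for the 3 highest and 3 lowest palbociclib effects, and of each other list the 3 highest and 3 lowest are named. The code was tested on simulated data with 200 altered genes in a table of 15350: at a planted log2 difference of 1 it called 148 of them and 5 unaltered genes, and at 0.5 it called 58 and 4. Fragment numbers were estimated from the smallest steps of FPKM values and gene lengths in GENCODE. Similar sequences were sought with blastn 2.17.0, and figures were drawn with matplotlib 3.10.9. Alternatives were pseudocounts of 1 and 0.01, a filter at 1 or none, TPM, quantile normalization, no trend, a replicate block, only the arms compared, and leaving out each tumor. Single-cell and protein data of the study were not used here.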

Additional observations from a re-analysis of the deposited data

How the results depend on the processing

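The palbociclib effect was above 0 for all 40 members under every alternative run, with a median of 0.26 to 0.35 apart from fits without 1 tumor, and the adjusted threshold was passed by 0 members in each contrast under every alternative other than those named here. Leaving out 1 tumor gave 0 to 23 members passing for the palbociclib effect (23 without anti-PD-1 1, 6 without vehicle 1) and 0 in each fit for the other contrasts; at an unadjusted p under 0.05 it gave 11 to 39 members for the palbociclib effect, 4 to 31 for palbociclib against vehicle and 9 to 38 for the combination against vehicle. For the palbociclib effect this count was 11 to 17 without vehicle 2, vehicle 3, palbociclib 2, anti-PD-1 2, anti-PD-1 3 or combination 2. For palbociclib against vehicle it was 4 to 8 without vehicle 2, vehicle 3, palbociclib 2 or palbociclib 3. It was 29 to 31 without anti-PD-1 1 or vehicle 1. For the combination against vehicle it was 9 to 18 without vehicle 2, vehicle 3, combination 1 or combination 2. The share of all genes at the unadjusted level was not taken under any alternative, so these counts have no background beside them. Quantile normalization left 15 members at an unadjusted p under 0.05 for the palbociclib effect and turned palbociclib minus vehicle of *Bub1* to -0.018. The number of genes that passed for the palbociclib effect in the whole table was 48, 70 with a filter at 1, 11 with no filter, 0 without the trend, and 0 to 758 without 1 tumor. The labels give no replicate numbers, so the numbers here only name tumors in the order of their records and pair nothing by design. Over 18 pairs of tumors with the same number the median correlation of deviations was 0.028, from -0.21 to 0.45, with 7 above 0.1, the 3 pairs of vehicle with anti-PD-1 among them. With a replicate block, 1 member passed for the palbociclib effect (*Spc25*, limma adjusted p = 0.0495), 26 members were at an unadjusted p under 0.05 for palbociclib against vehicle, and 129 genes passed in the whole table; no other member call changed. With 3 tumors an arm and an estimated 14900000 to 20300000 fragments each, the spread between tumors limits these comparisons, and no member rested on fewer than an estimated 196 fragments.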
